A study of Mus musculus with 13 samples.

Results

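Mitochondrial carriers of the SLC25 family were examined in parametrial white adipose tissue (pmWAT), the fat pad beside the uterus, of female mice. Members were the protein-coding genes named *Slc25a* and a number, without *Slc25a1*, *Slc25a17* and *Slc25a20*, that had at least 10 counts summed over all libraries. Of 46 such symbols in the counts, 3 were left out by this rule, *Slc25a41* fell short of the minimum with 3 counts, and 42 of the 33618 genes counted were members. The 7 control libraries were from *Lmna* fl/fl mice, which carry loxP sites around exons 10 and 11 of the gene for lamins A and C. The 6 *Lmna* iADKO libraries were from fl/fl mice that also carried *Adipoq*-CreERT2+/-, a Cre recombinase driven by the adiponectin promoter of adipocytes and switched on by tamoxifen. All mice, controls included, were injected with tamoxifen at 50 mg/kg daily for 5 days from 12 to 14 weeks of age, and whole pmWAT was collected 2 weeks afterwards. Each library was from 1 mouse.

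SLC25 proteins sit mostly in the inner mitochondrial membrane, where each exchanges or imports a small set of solutes: ADP for ATP, phosphate, dicarboxylates, amino acids, coenzymes, nucleotides or iron. They are made in the cytosol and inserted into the membrane by the TIM22 complex. In white adipocytes the exchange of citrate and dicarboxylates across this membrane is known for feeding lipid synthesis, and the exchange of adenine nucleotides for feeding energy-requiring steps in the cytosol.

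The libraries were of similar depth, with 18854223 to 19776491 counts on genes each. Levels are given as CPM, counts scaled to a common library size after TMM normalization, and the TMM factors were 0.892 to 1.02 in fl/fl and 1.05 to 1.10 in iADKO. *Lmna* itself averaged 84.7 ± 7.51 CPM (SD, n = 7) among controls. In the libraries labelled iADKO it averaged 96.7 ± 11.5 CPM (SD, n = 6), and the log2 fold change was 0.19 (SE 0.0789, adjusted p = 0.0785 in edgeR's quasi-likelihood test with Benjamini-Hochberg adjustment). Counts were for the whole gene, so the floxed exons could not be separated, and every direction below rests on the labels. The adipocyte identity of the tissue was clear from its markers, with *Adipoq* at 2139 CPM and *Fabp4* at 5191 CPM on average in fl/fl. The library fl/fl 5 stood apart. Its 9 adipocyte markers summed to 16955 CPM, the lowest of fl/fl and inside the iADKO range of 10971 to 18647, and its 9 macrophage markers summed to 4755 CPM, above every other library. Conversely, iADKO 6 had the highest adipocyte sum of its genotype (18647 CPM) and the lowest macrophage sum (2670 CPM). The share of counts on mitochondrially encoded genes was 2.84% to 5.07% among fl/fl mice, lowest in fl/fl 5, and 2.39% to 3.99% among iADKO mice, highest in iADKO 6, and the part of this share in the carrier values was not tested. The names of fl/fl 5 and iADKO 6 hold consecutive numbers. In these measures fl/fl 5 resembled the iADKO libraries, while iADKO 6 lay between the genotype medians in both marker sums. For adipocyte markers these medians were 23254 CPM in fl/fl and 12544 CPM in iADKO, and for macrophage markers 1966 and 3926 CPM. The labels of both libraries could not be checked from whole-gene counts, so values without them are given beside the counts.

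More carriers were lower than higher in iADKO after TMM normalization, but not when counts were scaled by library totals alone, where 9 were lower and 10 higher. Of 42 members, 38 passed the filter on low counts and were tested, 15 were lower, 3 were higher and 20 did not pass an adjusted p of 0.05 in edgeR's quasi-likelihood test with Benjamini-Hochberg adjustment. Over all 16753 genes tested, 16.3% were lower and 14.1% were higher, against 7.64% and 44.0% with library totals alone. The median log2 fold change (iADKO minus fl/fl) was -0.20 over the tested members and 0.033 over all genes. The distance between these medians was also 0.24 with library totals alone. A change of scaling shifts all genes about alike, so the kept distance was built in and is no separate result. Because whole tissue was sequenced, fewer adipocytes and less carrier mRNA per adipocyte cannot be told apart. All 9 adipocyte markers were lower, with a median log2 fold change of -0.75, and 5 of 9 macrophage markers were higher, with a median of 0.56. Whether these shifts in markers had a part in the carrier values was not tested. Without fl/fl 5, 17 members were lower and 7 higher (19.7% and 19.8% of all genes). Without both fl/fl 5 and iADKO 6, 19 were lower and 7 higher (23.3% and 19.6% of all genes). *Slc25a4*, *Slc25a5*, *Slc25a15* and *Slc25a48* were then also lower, and *Slc25a12*, *Slc25a13*, *Slc25a37* and *Slc25a43* also higher. With the series of library numbers described below as a block in the fit, 11 of the 18 calls made without it were lost. Over all genes, 30.5% were called in either direction without the block and 11.9% with it. The calls of *Slc25a10*, *Slc25a23*, *Slc25a24*, *Slc25a29*, *Slc25a33*, *Slc25a35* and *Slc25a44* were kept.

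**Figure D1:**
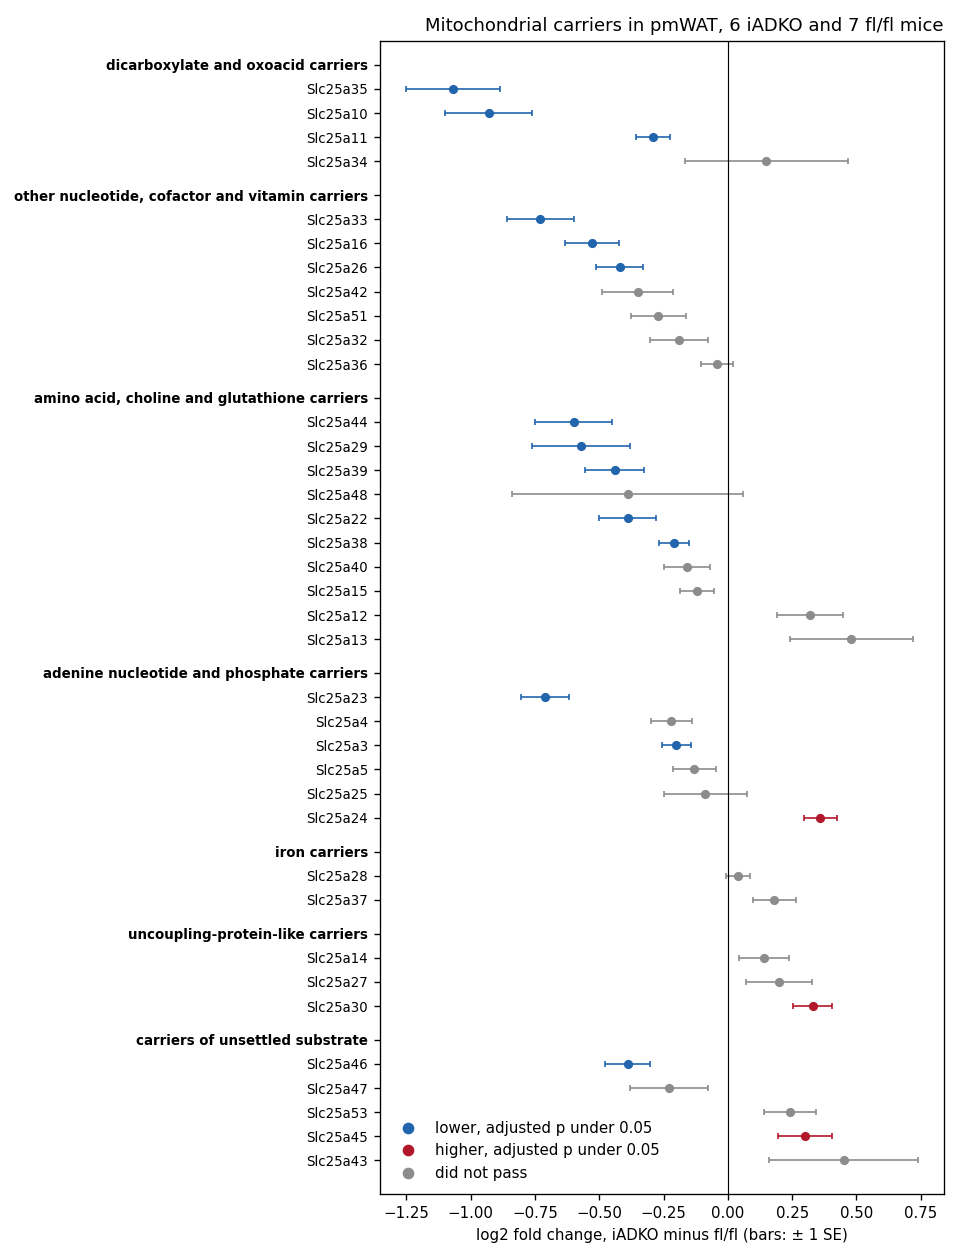
Log2 fold change of 37 of the 38 tested carriers between 6 iADKO and 7 fl/fl mice (x axis), grouped by transported solute (y axis), with bars of ± 1 SE. Blue points were lower and red points higher at an adjusted p under 0.05, and grey points did not pass. The dicarboxylate carriers *Slc25a35* and *Slc25a10* lie farthest to the left at -1.07 and -0.93, and the 3 red points lie between 0.30 and 0.36.

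The dicarboxylate and oxoacid carriers held the members with the largest falls. Of 5 members, 4 were tested and 3 were lower (16.3% of all genes), with a median log2 fold change of -0.61. *Slc25a10* (ENSMUSG00000025792, chromosome 11, 120382359 to 120391985, plus strand, GRCm39), the dicarboxylate carrier that exchanges malate and succinate for phosphate, was one of the most abundant carriers per unit of exon length (99.8 CPM per kb in fl/fl). It ranged from 292 to 693 CPM (median 590.1) in fl/fl and from 227 to 377 CPM (median 299) in iADKO. The groups overlapped only through fl/fl 5, which was at 292 CPM while the next fl/fl mouse was at 578. The log2 fold change was -0.93 (SE 0.169, adjusted p = 0.00160). *Slc25a35* (ENSMUSG00000018740, chromosome 11, 68858262 to 68867545, plus strand), a related carrier with less settled substrates, fell from 43.5 ± 11.2 CPM (SD, n = 7) to 20.7 ± 3.68 CPM (SD, n = 6), or 47.6% of the fl/fl mean (log2 fold change -1.07, SE 0.183, adjusted p = 0.00126). Of its exon bases, 26.0% overlap exons of *Rangrf* on the other strand. The study describes its sequencing as strand-specific, but whether the counting used strand was not given in the sources used here. *Slc25a11*, the oxoglutarate carrier of the malate-aspartate shuttle, was lower by a smaller margin, at 81.9% of fl/fl (log2 fold change -0.29, adjusted p = 0.00580). *Slc25a34* was scarce (0.935 ± 0.293 CPM in fl/fl, SD, n = 7) and did not pass (log2 fold change 0.15, adjusted p = 0.739). The oxoadipate carrier *Slc25a21* had 39 counts in all and was not tested.

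Among adenine nucleotide and phosphate carriers, 6 of 7 members were tested, and 2 were lower and 1 was higher (16.3% and 14.1% of all genes). Their median log2 fold change was -0.16. *Slc25a5* and *Slc25a4* are the main ADP/ATP carriers, and *Slc25a5* had the highest fl/fl level per exon length of all members (173 CPM per kb, against 64.8 for *Slc25a4*). *Slc25a5* ranged from 241 to 322 CPM (median 319) in fl/fl and from 252 to 327 CPM (median 273) in iADKO. The overlap came from fl/fl 5, at 241 CPM, and iADKO 6, at 327 CPM. The log2 fold change of -0.13 (SE 0.0822) did not pass with all mice (adjusted p = 0.252). It was -0.25 without both of these mice (adjusted p = 0.00272) and 0.076 with library totals alone (adjusted p = 0.338). *Slc25a4* ranged from 155 to 219.6 CPM (median 189.8) in fl/fl and from 150.1 to 182 CPM (median 166) in iADKO. It fell short of the threshold, with a log2 fold change of -0.22 (SE 0.0794, adjusted p = 0.0520). The phosphate carrier *Slc25a3*, which supplies phosphate for ATP synthesis, ranged from 364 to 441 CPM (median 431) in fl/fl and from 348 to 393 CPM (median 366) in iADKO. Here 6 of the 7 fl/fl mice were above every iADKO mouse, with fl/fl 5 the exception. The log2 fold change was -0.20 (SE 0.0577, adjusted p = 0.0197) but 0.00683 with library totals alone.

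The calcium-dependent ATP-magnesium/phosphate carriers of this group went in opposite directions. These carriers shift the adenine nucleotide pool between cytosol and matrix when calcium rises. *Slc25a23* (ENSMUSG00000046329, chromosome 17, 57350705 to 57366905, minus strand) ranged from 144 to 180.5 CPM (median 173) in fl/fl and from 89.8 to 136 CPM (median 95.0) in iADKO. It was the only lower member whose groups did not overlap (log2 fold change -0.71, SE 0.0943, adjusted p = 3.09e-04), a pattern that 3.93% of all genes tested showed in this direction. The study had itself picked *Slc25a23* from these libraries for display, so its direction is not independent evidence. *Slc25a24* (ENSMUSG00000040322, chromosome 3, 109030317 to 109075773, plus strand) ranged from 33.1 to 41.0 CPM (median 35.2) in fl/fl and from 40.9 to 50.8 CPM (median 46.0) in iADKO. Only the highest fl/fl mouse, fl/fl 5, reached the lowest iADKO mouse, and the log2 fold change was 0.36 (SE 0.0647, adjusted p = 0.00153). *Slc25a25*, the third carrier of this kind measured, ranged widely in both genotypes and did not pass (log2 fold change -0.088, adjusted p = 0.707). The testis carrier *Slc25a31* had 36 counts in all and was not tested.

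**Figure D2:**
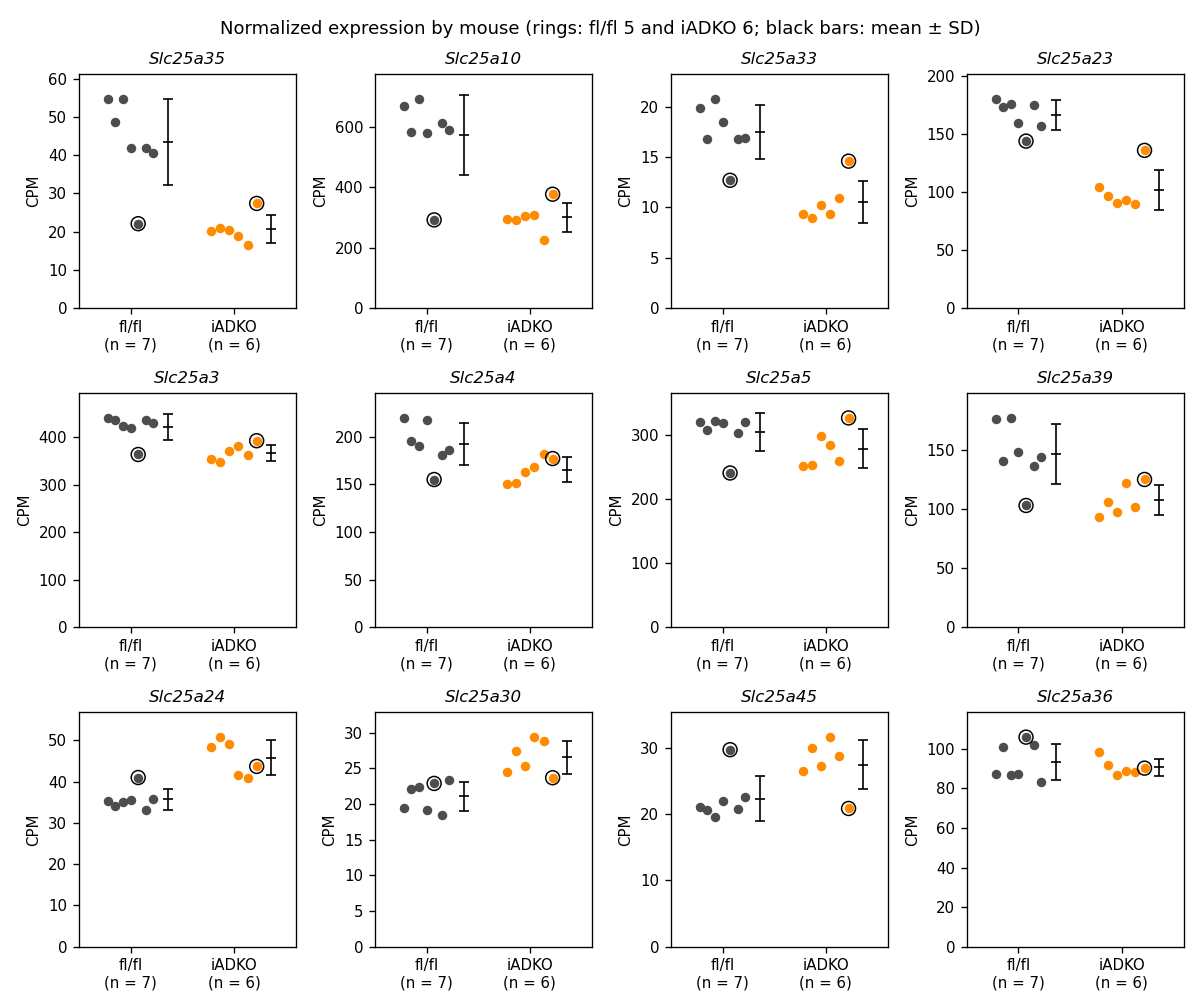
Normalized expression (CPM, y axis, from 0) of 12 carriers in each mouse, fl/fl in grey and iADKO in orange, with the mean ± SD as black bars and rings around fl/fl 5 and iADKO 6. For *Slc25a10* the ringed fl/fl mouse at 292 CPM lies among the iADKO mice, and for *Slc25a23* and *Slc25a30* the genotypes do not overlap.

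Among carriers of other nucleotides, cofactors and vitamins, all 8 members were tested, and 4 were lower and none was higher (16.3% and 14.1% of all genes). Their median log2 fold change was -0.38. *Slc25a33*, a pyrimidine nucleotide carrier (ENSMUSG00000028982, chromosome 4, 149828491 to 149858751, minus strand), ranged from 12.7 to 20.8 CPM (median 16.9) in fl/fl and from 8.91 to 14.6 CPM (median 9.77) in iADKO. The overlap came from fl/fl 5 and iADKO 6, and the log2 fold change was -0.73 (SE 0.130, adjusted p = 0.00143). The other pyrimidine nucleotide carrier, *Slc25a36*, ranged from 83.5 to 106 CPM (median 87.5) in fl/fl and from 86.7 to 98.5 CPM (median 89.6) in iADKO. All 6 iADKO values lay inside the fl/fl range (log2 fold change -0.043, SE 0.0630, adjusted p = 0.625). *Slc25a16*, implicated in coenzyme A transport, was at 69.1% of fl/fl (log2 fold change -0.53, adjusted p = 0.00244). *Slc25a26*, the S-adenosylmethionine carrier, was at 74.9% of fl/fl (log2 fold change -0.42, adjusted p = 0.00462), with 19.6% of its exon bases overlapping *Lrig1* on the other strand. The coenzyme A carrier *Slc25a42* (log2 fold change -0.35, adjusted p = 0.0704), the NAD carrier *Slc25a51* (-0.27, adjusted p = 0.0692) and the folate carrier *Slc25a32* (-0.19, adjusted p = 0.198) did not pass.

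Of 12 members that carry amino acids, choline or glutathione, 10 were tested, and 5 were lower and none was higher (16.3% and 14.1% of all genes). Their median log2 fold change was -0.30. The lower members were *Slc25a44*, which imports branched-chain amino acids (log2 fold change -0.60, adjusted p = 0.00962), *Slc25a29*, a carrier of basic amino acids (-0.57, adjusted p = 0.0375), the glutathione carrier *Slc25a39* (-0.44, adjusted p = 0.0107), the glutamate carrier *Slc25a22* (-0.39, adjusted p = 0.0164) and *Slc25a38*, the glycine carrier that serves heme synthesis (-0.21, adjusted p = 0.0156). *Slc25a44* was uneven in fl/fl, from 88.4 to 181 CPM, against 85.2 to 101 CPM in iADKO. The call for *Slc25a29*, at 5.12 to 10.8 CPM in fl/fl, was lost in 11 of 24 alternatives, among them the omission of any one of 9 mice. *Slc25a39* ranged from 103 to 177 CPM (median 144) in fl/fl and from 93.3 to 125 CPM (median 104) in iADKO. Its relative *Slc25a40* ranged from 12.4 to 17.1 CPM (median 13.6) and from 11.1 to 14.8 CPM (median 12.5), and did not pass (log2 fold change -0.16, SE 0.0889, adjusted p = 0.193).

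The aspartate-glutamate carriers of the malate-aspartate shuttle lay on the other side of 0 from the oxoglutarate carrier *Slc25a11*, without passing with all mice. *Slc25a12* ranged from 21.3 to 36.5 CPM (median 28.2) in fl/fl and from 27.3 to 42.0 CPM (median 37.4) in iADKO (log2 fold change 0.32, SE 0.129, adjusted p = 0.0700). *Slc25a13* ranged from 1.78 to 5.52 CPM (median 2.63) and from 3.29 to 4.99 CPM (median 4.24), with a log2 fold change of 0.48 (SE 0.238, adjusted p = 0.139). For both, the genotypes overlapped. Without both fl/fl 5 and iADKO 6 the log2 fold changes were 0.44 (adjusted p = 0.00728) and 0.73 (adjusted p = 0.00774). Within series A, described below, they were 0.038 and -0.021. The ornithine carrier *Slc25a15* (-0.12, adjusted p = 0.198) and the choline carrier *Slc25a48* (-0.39, adjusted p = 0.533) did not pass. The second glutamate carrier, *Slc25a18*, and the second ornithine carrier, *Slc25a2*, were too scarce to test, with 23 and 27 counts in all.

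Neither iron carrier passed with all mice. *Slc25a28*, mitoferrin of most tissues, ranged from 39.8 to 46.3 CPM (median 42.5) in fl/fl and from 42.2 to 46.7 CPM (median 44.2) in iADKO (log2 fold change 0.040, SE 0.0453, adjusted p = 0.526). *Slc25a37*, the mitoferrin of red cell precursors, ranged from 49.0 to 71.0 CPM (median 51.5) and from 57.4 to 65.5 CPM (median 62.6) (log2 fold change 0.18, SE 0.0836, adjusted p = 0.122). Of the fl/fl mice, fl/fl 5 and fl/fl 7 were high, inside or above the iADKO range. Without both fl/fl 5 and iADKO 6 the log2 fold change of *Slc25a37* was 0.25 (adjusted p = 0.00475). That of *Slc25a28* was -0.017 (adjusted p = 0.783). Erythroid markers did not differ past the threshold, with 0 of 5 called.

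Of the 3 relatives of uncoupling proteins among the members, 0 were called lower and 1 higher (16.3% and 14.1% of all genes). Their median log2 fold change was 0.20. *Slc25a30* (ENSMUSG00000022003, chromosome 14, 75997556 to 76024490, minus strand) ranged from 18.4 to 23.4 CPM (median 22.1) in fl/fl and from 23.7 to 29.4 CPM (median 26.5) in iADKO. The genotypes did not overlap, as in 2.71% of all genes in this direction, although the gap between the nearest mice was small (log2 fold change 0.33, SE 0.0749, adjusted p = 0.00531). The call was lost with the animal series as a block (*Slc25a30* log2 fold change 0.31, adjusted p = 0.0668) and within series B (0.28, adjusted p = 0.0854). *Slc25a14* (log2 fold change 0.14, adjusted p = 0.299) and *Slc25a27* (0.20, adjusted p = 0.253) did not pass. The uncoupling proteins proper, whose symbols fall outside the member rule, moved in both directions. *Ucp1*, of thermogenic adipocytes, ranged from 3.76 to 40.8 CPM in fl/fl and from 0.672 to 6.93 CPM in iADKO (log2 fold change -2.92, SE 0.717, adjusted p = 0.00983), and *Ucp2*, abundant in macrophages, averaged 253 ± 66.3 CPM (SD, n = 7) and 399 ± 51.1 CPM (SD, n = 6) (log2 fold change 0.65, SE 0.145, adjusted p = 0.00467).

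Among 5 members of unsettled substrate, 1 was lower and 1 higher (16.3% and 14.1% of all genes). *Slc25a46*, which acts at the outer membrane in mitochondrial shape, was lower (log2 fold change -0.39, adjusted p = 0.00537). *Slc25a45* ranged from 19.6 to 29.8 CPM (median 21.1) in fl/fl and from 20.9 to 31.7 CPM (median 28.1) in iADKO. The groups overlapped through fl/fl 5, the highest of fl/fl, and iADKO 6, the lowest of iADKO (log2 fold change 0.30, SE 0.106, adjusted p = 0.0455). This call was the least stable, lost in 16 of 24 alternatives. *Slc25a43* (0.45, adjusted p = 0.253), *Slc25a47* (-0.23, adjusted p = 0.259) and *Slc25a53* (0.24, adjusted p = 0.0888) did not pass.

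Called members had higher median levels than those that did not pass, although *Slc25a5*, the most abundant member at 173 CPM per kb, did not pass. Whether level affected which members were called was not tested. In fl/fl, the median level was 13.8 CPM per kb over the 15 lower members, 6.27 over the 3 higher ones and 2.68 over the 20 that did not pass. The lower members lay on 10 chromosomes. Within the lower members the log2 fold changes ran from -1.07 to -0.20, with a median of -0.53. Only *Slc25a35* and *Slc25a10* fell further than the median adipocyte marker (-0.75).

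The pattern by mouse turned on the same libraries throughout. Summed over members, carrier mRNA was 3111 to 3465 CPM in 6 fl/fl mice, 2507 CPM in fl/fl 5 and 2343 to 2733 CPM in the 6 iADKO mice. For the 15 lower members, fl/fl 5 was the lowest fl/fl mouse in 13 and lay inside the iADKO range in 14, and iADKO 6 was the highest iADKO mouse in 12. Of the 15, 1 had no overlap between genotypes with all mice (3.93% of all genes), 10 without fl/fl 5 and 13 without both. The share of all genes without overlap was not counted with mice left out. Since fl/fl 5 and iADKO 6 were mostly the extremes of these members, less overlap without them was built in and is no separate result. Library names begin with numbers, which were taken as animal numbers although no label says so. They were grouped by nearness into 4 series, of which 2 hold both genotypes. The labels name no such series, and iADKO 1 lies as far from the rest of series B as series C lies from series A, so the values by series rest on this grouping. Within series A, which holds fl/fl 4 and 5 and iADKO 4 and 6, edgeR's quasi-likelihood test called 0 members and 0 of all genes, with 1 member and 643 genes at an unadjusted p under 0.05. All 15 lower members had a negative log2 fold change there, some near 0 (-0.016 for *Slc25a22*). They were called with these mice included, so their sign is no separate result. Within series B, with 3 fl/fl and 2 iADKO mice, 18 members were lower and 4 higher (15.9% and 12.9% of all genes). With the series as a block in the fit, 6 members were lower and 1 higher (7.17% and 4.68% of all genes). Series C holds only fl/fl and series D only iADKO mice, so the genotype difference in that fit rests on series A and B. Series A includes both fl/fl 5 and iADKO 6.

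**Figure D3:**
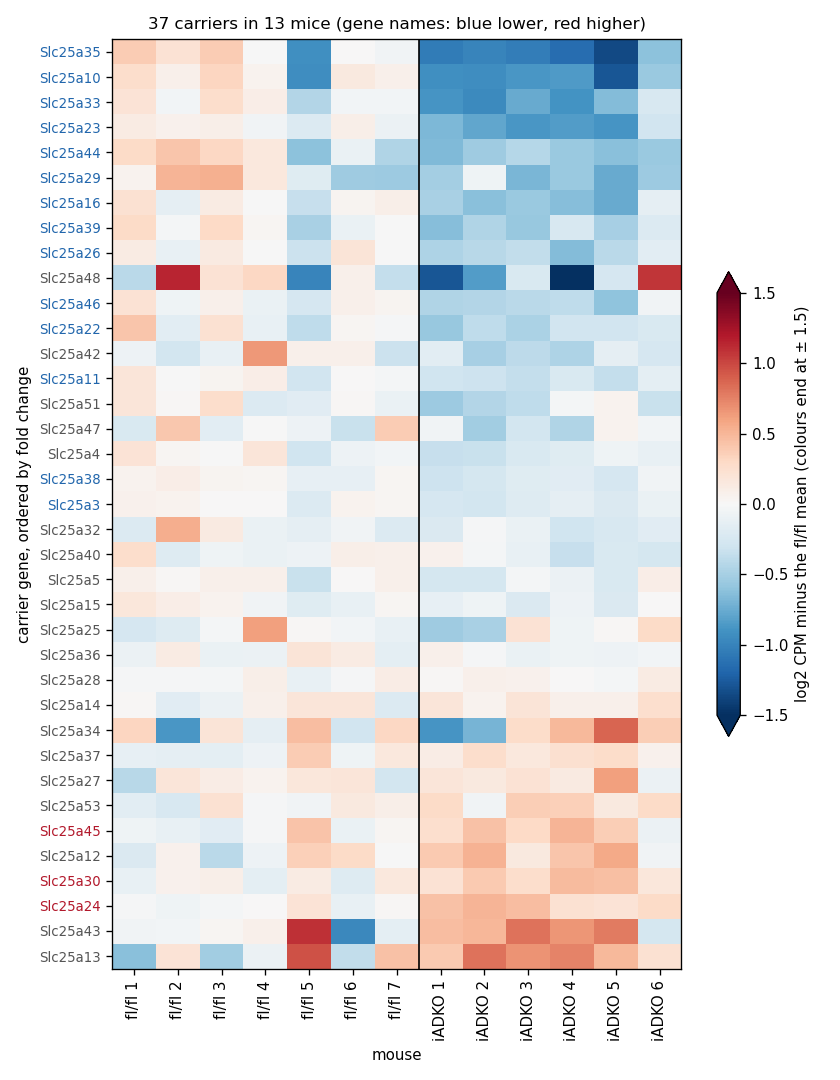
Log2 CPM of 37 of the 38 tested carriers (rows, ordered by fold change) in 13 mice (columns), as the difference from the fl/fl mean of the gene. Blue is below and red above that mean, and the line separates fl/fl from iADKO. The fl/fl 5 column is blue for most lower members, where its mean difference is -0.41, against -0.64 to -0.30 in iADKO mice.

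Ratios within a mouse compare related carriers with the scaling of the library cancelled, apart from the prior count. The log2 ratio was compared for 6 pairs of related carriers by exact two-sided permutation tests over mice, with p-values adjusted over the 6 pairs by the Benjamini-Hochberg method. The smallest p such a test could give was 5.83e-04. The ratio of *Slc25a24* to *Slc25a23* lay between -2.40 and -1.81 in fl/fl (mean -2.22 ± 0.209, SD, n = 7) and between -1.64 and -0.88 in iADKO (mean -1.14 ± 0.269, SD, n = 6). All 6 iADKO mice were above every fl/fl mouse, and the difference of 1.08 had the smallest possible exact permutation p (adjusted p = 0.00350). The ratio of *Slc25a36* to *Slc25a33* rose by 0.69, from a mean of 2.42 ± 0.346 (SD, n = 7) to 3.11 ± 0.284 (SD, n = 6), and 4 of 6 iADKO mice were above all fl/fl mice (exact permutation p = 0.00466, adjusted p = 0.0140). In both pairs the carrier that fell was set against one that rose or lay near 0.

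The other 4 pairs did not pass. The difference in log2 ratio was 0.28 for *Slc25a40* to *Slc25a39* (exact permutation adjusted p = 0.199), -0.15 for *Slc25a28* to *Slc25a37* (adjusted exact p = 0.255), 0.084 for *Slc25a5* to *Slc25a4* (adjusted exact p = 0.255) and -0.23 for *Slc25a12* to *Slc25a13* (adjusted exact p = 0.283). Without fl/fl 5 the difference for *Slc25a28* to *Slc25a37* was -0.23 and passed (adjusted exact permutation p = 0.0130). Megablast of the member transcripts against GRCm39 found copies elsewhere in the genome, of at least 300 bases and 97% identity, for *Slc25a5*, *Slc25a36*, *Slc25a37* and *Slc25a51*, so reads of these genes could be split or lost between copies.

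**Figure D4:**
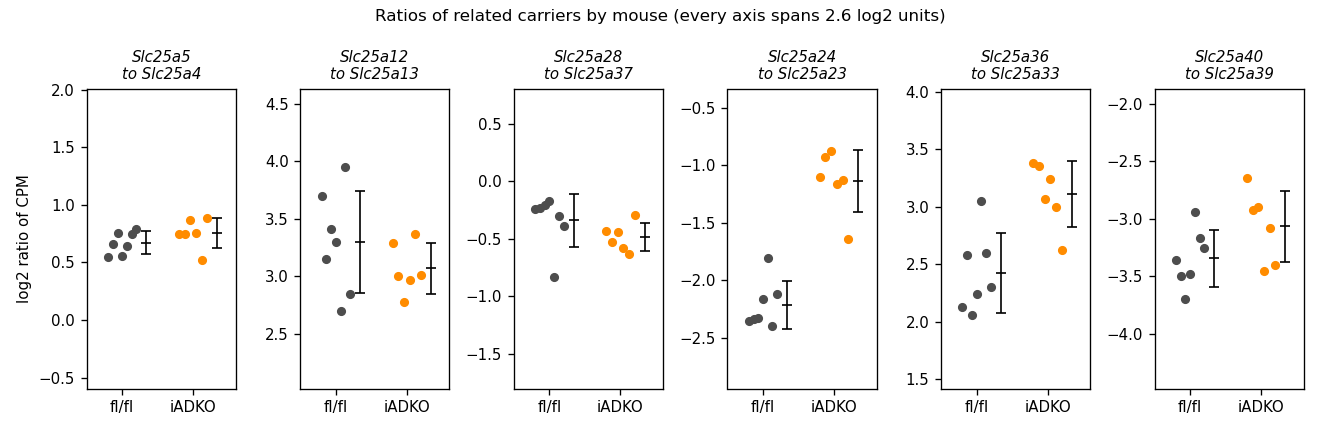
Log2 ratio of CPM (y axis) of 6 pairs of related carriers in each mouse, fl/fl in grey (n = 7) and iADKO in orange (n = 6), with the mean ± SD as black bars. Every axis spans the same range of log2 units but is centred on its own pair. Only the ratio of *Slc25a24* to *Slc25a23* separates all 6 iADKO mice from all fl/fl mice.

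The promoters of the members were searched for short motifs of factors that are known to act on mitochondrial genes. Windows of 300 bases (250 before and 50 from the start of the canonical transcript in GENCODE vM39) were read from GRCm39 for 14133 tested protein-coding genes and searched on both strands. The motif of nuclear respiratory factor 1, GCGCA followed by any base and then GCGC, was in 2 of 38 tested members (5.26%) and 8.26% of all promoters. The ETS motif CCGGAAG was in 5 (13.2%, against 14.1% of all), the cAMP response element TGACGTCA in 2 (5.26%, against 2.99%), the E-box CACGTG in 9 (23.7%, against 9.59%) and the estrogen-related receptor element TCAAGGTCA in 0 (0.347% of all). The E-box was in 4 of 15 lower members, 5 of 20 that did not pass and 0 of 3 higher ones. A match is a description of letters in the window and not a binding site.

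The promoters of 4 members are shown, for an opposed pair and for the motifs. *Slc25a23* and *Slc25a24* went in opposite directions and held none of the motifs. Both lower members *Slc25a3* and *Slc25a26* held motifs. *Slc25a3* held a nuclear respiratory factor 1 motif and an ETS motif, which began 178 and 139 bases before the start. *Slc25a26* held an E-box and a cAMP response element just after the start. On GRCm39 the windows are chr17:57366856-57367155 (minus strand) for *Slc25a23*, chr3:109030067-109030366 (plus strand) for *Slc25a24*, chr10:90959816-90960115 (minus strand) for *Slc25a3* and chr6:94477000-94477299 (plus strand) for *Slc25a26*. Each sequence runs in the direction of the gene, 5′ to 3′, and capitals mark the motifs, none of which overlap.
Slc25a23: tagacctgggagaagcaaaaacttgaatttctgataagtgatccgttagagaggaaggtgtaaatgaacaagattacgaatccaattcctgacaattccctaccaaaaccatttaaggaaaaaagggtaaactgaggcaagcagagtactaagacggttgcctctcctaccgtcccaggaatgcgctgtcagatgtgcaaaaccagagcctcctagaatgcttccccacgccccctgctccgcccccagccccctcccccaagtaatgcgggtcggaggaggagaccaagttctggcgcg
Slc25a24: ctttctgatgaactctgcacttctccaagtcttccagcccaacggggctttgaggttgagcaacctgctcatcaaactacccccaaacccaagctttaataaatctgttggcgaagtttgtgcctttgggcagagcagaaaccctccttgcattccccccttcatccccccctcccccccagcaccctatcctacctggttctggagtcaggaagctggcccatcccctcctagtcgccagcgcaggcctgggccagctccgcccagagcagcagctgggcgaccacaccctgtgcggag
Slc25a3: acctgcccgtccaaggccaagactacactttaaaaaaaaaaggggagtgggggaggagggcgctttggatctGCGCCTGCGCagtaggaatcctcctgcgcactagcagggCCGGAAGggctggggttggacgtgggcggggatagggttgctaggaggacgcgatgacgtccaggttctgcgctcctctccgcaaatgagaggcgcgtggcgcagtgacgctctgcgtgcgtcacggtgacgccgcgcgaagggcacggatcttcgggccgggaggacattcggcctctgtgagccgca
Slc25a26: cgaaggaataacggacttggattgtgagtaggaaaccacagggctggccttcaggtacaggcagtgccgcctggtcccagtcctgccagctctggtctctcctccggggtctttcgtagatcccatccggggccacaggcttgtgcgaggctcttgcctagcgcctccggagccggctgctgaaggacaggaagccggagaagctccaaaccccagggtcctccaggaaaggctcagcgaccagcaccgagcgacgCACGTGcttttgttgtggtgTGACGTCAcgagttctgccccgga

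The insertion pathway of the carriers was lower at about the share of all genes (16.3%). In a list of 13 genes of the TIM22 route, 2 were lower and none higher, and the median log2 fold change was -0.15. These were *Timm29*, a TIM22 subunit (log2 fold change -0.30, SE 0.0645, adjusted p = 0.00376), and *Timm8b*, a small chaperone of the intermembrane space (-0.31, SE 0.0985, adjusted p = 0.0288). The difference between this list and the carriers was not tested.

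Mitochondrial transporters whose symbols fall outside the member rule were listed beside the carriers. They are not all of other families, since the list includes the uncoupling proteins and *Mtch1* and *Mtch2*. Of these, *Ucp1*, *Ucp3*, *Mtch1* and *Mtch2* were among the lower genes and *Ucp2* among the higher. Of 23 genes, 13 were lower and 2 higher (16.3% and 14.1% of all genes), with a median of -0.33. *Mpc1* and *Mpc2*, the subunits of the mitochondrial pyruvate carrier, fell together. *Mpc1* ranged from 93.0 to 239.5 CPM (median 194) in fl/fl and averaged 91.1 ± 18.5 CPM (SD, n = 6) in iADKO (log2 fold change -1.07, SE 0.192, adjusted p = 0.00171). *Mpc2* had a log2 fold change of -0.61 (SE 0.149, adjusted p = 0.00846). For both, fl/fl 5 was the low control, at 93.0 and 101 CPM. *Sfxn5*, a sideroflexin, had the lowest adjusted p of the list (log2 fold change -0.67, SE 0.0607, adjusted p = 5.95e-05).

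The enzymes that share substrates with the aspartate-glutamate, oxoglutarate and glutamate carriers were split. Of 8, 4 were lower and 1 higher (16.3% and 14.1% of all genes). *Glul*, glutamine synthetase, had the lowest adjusted p (log2 fold change -0.80, SE 0.130, adjusted p = 7.94e-04) and averaged 2854 ± 434 CPM among the fl/fl mice (SD, n = 7) and 1637 ± 267 CPM among the iADKO mice (SD, n = 6). The malate dehydrogenases *Mdh1* (-0.65, adjusted p = 0.00210) and *Mdh2* (-0.51, adjusted p = 0.00422) and glutamate dehydrogenase *Glud1* (-0.27, adjusted p = 0.00676) were lower, and the cytosolic aspartate aminotransferase *Got1* was higher (0.55, adjusted p = 0.00994).

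Markers of other cells were listed for comparison, where 16.3% of all genes were lower and 14.1% higher. Brown adipocyte markers were lower in 3 of 5, endothelial markers in 2 of 5, and B and T cell markers were higher in 1 of 3 each. No progenitor (0 of 6), mesothelial (0 of 4), smooth muscle (0 of 4) or skeletal muscle (0 of 9) marker passed. Skeletal muscle markers, whose tissue is rich in *Slc25a4*, summed to 20.5 to 435 CPM in fl/fl, highest in fl/fl 5, and to 14.0 to 240.3 CPM in iADKO, and 3 of them were at 0 in at least 1 library. Their part in the carrier values was not tested.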

How the data were processed

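Bulk RNA-Seq of whole pmWAT from 7 fl/fl and 6 iADKO mice was used. As deposited, the authors' raw counts were not normalized, and the authors made the deposited log2 values from them with the rlog transform of DESeq2. The submitters' processing notes name FastQC 0.12.1, STAR 2.7.11a and DESeq2, with alignment to mm39. The counting tool and annotation were not given in the sources used here. Recomputed rlog values differed from the deposited log2 values by at most 4.66e-08. Genotypes came from the sample labels.

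With edgeR 4.0.16 in R 4.3.3, filterByExpr kept 16753 of 33618 genes, which were normalized by TMM and compared by the robust quasi-likelihood test, adjusted by Benjamini-Hochberg with a threshold of 0.05. Log2 CPM used a prior count of 2. Coordinates and exon lengths came from GENCODE vM39, in which 33184 identifiers had a symbol. The scripts were tested on simulated data. The members and gene lists were chosen with earlier results of these data known. Every member could be named, except that the values of 1 tested member, included in the counts and sums except that of outlying mice, are not reported here. Values by mouse are given for the 5 highest per kb, members without overlap, the 6 pairs and the higher members. Errors are the spread between mice, which includes counting error, and no 2 libraries of a genotype agreed within sampling noise (lowest chi-square per degree of freedom 8.9).

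Alternatives were DESeq2 size factors, DESeq2 1.42.0, other filters, limma 3.58.1 on rlog, blocks, single series and each mouse left out, with total counts without TMM and the omission of fl/fl 5 and iADKO 6 together added after seeing the data.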

Additional observations from a re-analysis of the deposited data

Results flagged for a closer look

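Among 74 groups of a member and a genotype, 15 had a highest or lowest mouse farther from its neighbours than Dixon's 95% limit, where chance flags about 1 in 20 groups. Of these, 6 were in fl/fl 5 and 5 in iADKO 6. The mouse fl/fl 5 was lowest of fl/fl for *Slc25a5* (241 CPM, next 304), *Slc25a10* (292 CPM, next 578) and *Slc25a3* (364 CPM, next 420.5), and highest for *Slc25a45* (29.8 CPM, next 22.6), *Slc25a43* (2.18 CPM, next 1.02) and *Slc25a24* (41.0 CPM, next 35.9). The mouse iADKO 6 was highest of iADKO for *Slc25a48* (8.20 CPM, next 3.27), *Slc25a46* (63.8 CPM, next 50.7), *Slc25a33* (14.6 CPM, next 10.9), *Slc25a23* (136 CPM, next 104) and *Slc25a16* (63.6 CPM, next 49.5). In fl/fl 4, *Slc25a42* (90.5 CPM, next 60.5) and *Slc25a25* (74.3 CPM, next 48.9) were high. In fl/fl 2, *Slc25a32* was high (50.7 CPM, next 38.1). In iADKO 2, *Slc25a29* was high (7.14 CPM, next 5.21).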

How the results depend on the processing

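With total counts and no TMM, the median log2 fold change of all genes moved from 0.033 to 0.24, and 9 members were lower and 10 higher. The lower share of called members went from 83.3% to 47.4%. Of all genes, 16.3% were lower and 14.1% higher with TMM, against 7.64% and 44.0% with total counts alone. With total counts the members' median was -4.42e-04, which lies 0.24 below that of all genes, as in the TMM fit. All 15 lower members were below the median of all genes. Since scaling shifts all genes about alike, neither is a separate result. Values that turned positive there were *Slc25a15* 0.087, *Slc25a25* 0.11, *Slc25a3* 0.00683, *Slc25a32* 0.00994, *Slc25a36* 0.16, *Slc25a40* 0.049 and *Slc25a5* 0.076. With the animal series as a block, 6 members were lower and 1 higher, and *Slc25a34* was -0.28. Within series A, with 0 lower and 0 higher, the median was -0.077 and signs changed for *Slc25a13* (-0.021), *Slc25a15* (0.086), *Slc25a27* (-0.094), *Slc25a37* (-0.00928), *Slc25a43* (-0.43), *Slc25a48* (0.48), *Slc25a5* (0.13) and *Slc25a51* (0.020). Within series B the median was -0.35, *Slc25a34* was -0.88 and *Slc25a36* 0.040. Differences in log2 ratio within series A were 0.23 for *Slc25a5* to *Slc25a4*, 0.063 for *Slc25a28* to *Slc25a37*, 0.59 for *Slc25a24* to *Slc25a23*, 0.29 for *Slc25a36* to *Slc25a33* and -0.21 for *Slc25a40* to *Slc25a39*. Within series B they were 1.33, 1.11 and 0.73 for *Slc25a24* to *Slc25a23*, *Slc25a36* to *Slc25a33* and *Slc25a40* to *Slc25a39*. Without both fl/fl 5 and iADKO 6, 7 members were higher, the median was -0.28 and *Slc25a28* was -0.017. With single mice left out, 14 to 17 members were lower and 2 to 7 higher. Of all genes, 13.3% to 19.7% were lower and 10.6% to 19.8% higher in these fits. *Slc25a25* ranged from -0.17 to 0.039 (positive without fl/fl 4), *Slc25a34* from -0.048 to 0.31 (negative without iADKO 5) and the difference for *Slc25a28* to *Slc25a37* from -0.23 to -0.12. The cause of these changes was not tested. The other planned fits gave 15 to 18 lower and 2 or 3 higher members. Of all genes, 7.09% to 17.7% were lower and 4.83% to 16.2% higher there, least without a filter on low counts.

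Replicate numbers were not taken to pair the mice, since the correlations of same-numbered mice ranged from -0.0265 to 0.217 (mean 0.107, against a mean of -0.0248 for other pairs) and 3 of 6 fl/fl mice correlated best with their own number. With the replicate number as a block and fl/fl 7 left out, 12 members were lower and 3 higher (14.7% and 14.2% of all genes), and the differences for *Slc25a24* to *Slc25a23* and *Slc25a36* to *Slc25a33* were 1.09 and 0.67, with adjusted exact p of 0.188 and 0.250 in a sign-flip permutation test whose smallest p is 0.0312. For *Slc25a34*, at 0.935 CPM in fl/fl, the SE was 0.317, and counting error and the spread between mice were not separated.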
